A study of Mus musculus with 2 samples.

Results

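The genes described here are the constant regions of mouse antibodies and the joining chain: the heavy chain genes Ighm, Ighd, Igha, Ighg1, Ighg2b, Ighg2c and Ighg3, the light chain genes Igkc and Iglc2, and Jchain. They were taken by gene symbol from the 2 count matrices of the series, and all 10 members were found among the 32285 genes of each. The libraries hold gingival immune infiltrate from C57BL/6 mice in a study of experimental periodontitis. The first came from mice labelled Otud1-/- (OTUD1 is an enzyme that removes ubiquitin from proteins), and the other from wild-type (WT) mice. The sources used here do not give the number or age of the animals behind each library, or which part of Otud1 was deleted. With 1 library per genotype nothing could be tested between genotypes, and all intervals below cover counting error only.

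The library labelled Otud1-/- held 8109 cell barcodes and 44083735 unique molecular identifiers (UMIs, each a captured transcript), and the WT library held 13267 barcodes and 44878537 UMIs. After filtering, 6486 cells with a median of 4135 UMIs and 11414 WT cells with a median of 2086 UMIs were kept, so depth per cell differed between the libraries. The mitochondrial filter took 14.2% of barcodes in the library labelled Otud1-/- and 3.58% in WT. The level of Otud1 was 33.0 CPM (UMIs scaled to a common library total) in the library labelled Otud1-/- and 18.6 CPM in WT, which goes against the label, although a 3′ tag outside a deleted part would not show the deletion. Xist, transcribed from the inactive X chromosome of female cells, had 5 UMIs in the library labelled Otud1-/- and 14449 in WT. Y-linked genes had 10368 and 6696 UMIs, so the WT library held cells of both sexes and the other held almost entirely cells without Xist. The libraries shared 37 barcode sequences. Members took up 1.75% of all UMIs in the library labelled Otud1-/- and 1.73% in WT.

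Each antibody is built from 2 identical heavy and 2 identical light chains, and the constant gene joined to the heavy chain sets the isotype. Naive B cells make IgM and IgD from 1 primary transcript by alternative splicing. On class switching, the Ighm and Ighd segments are cut out and a downstream gene (Ighg3, Ighg1, Ighg2b, Ighg2c, Ighe or Igha) takes their place. Plasma cells then secrete the antibody in bulk. The joining chain links secreted IgA into dimers and IgM into pentamers, and the linked forms are carried across mucosal epithelium. It is also transcribed in plasma cells that make IgG.

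The 7 heavy chain genes lie side by side on the minus strand of chromosome 12 (mm10, GENCODE M21 annotation), in transcription order Ighm at chr12:113418558-113422730, Ighd at chr12:113406604-113416324, Ighg3 at chr12:113356224-113361232, Ighg1 at chr12:113325240-113330523, Ighg2b at chr12:113302965-113307933, Ighg2c at chr12:113285325-113288932 and Igha at chr12:113254830-113260236. The kappa gene Igkc lies at chr6:70726435-70726966, the lambda gene Iglc2 at chr16:19198396-19200351 and Jchain at chr5:88519809-88527891. The ends of the secreted chains carry the residues through which they bind the joining chain or pair with the heavy chain. The last 60 coding bases of each are shown 5′ to 3′ from the GENCODE M21 transcripts, stop codon included, with the last cysteine codon in capitals where it is one of the final 2 codons before the stop.
Ighm: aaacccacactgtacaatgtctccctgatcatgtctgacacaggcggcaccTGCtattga
Igha: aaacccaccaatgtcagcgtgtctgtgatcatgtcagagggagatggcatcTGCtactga
Ighg2b: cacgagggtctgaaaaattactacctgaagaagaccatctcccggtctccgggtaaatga
Ighg2c: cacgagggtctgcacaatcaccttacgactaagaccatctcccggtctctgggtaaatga
Igkc: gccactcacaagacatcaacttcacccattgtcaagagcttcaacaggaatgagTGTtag
Iglc1: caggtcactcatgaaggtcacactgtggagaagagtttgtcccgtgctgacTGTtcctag
Iglc2: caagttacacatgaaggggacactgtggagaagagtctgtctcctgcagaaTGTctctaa
Iglc3: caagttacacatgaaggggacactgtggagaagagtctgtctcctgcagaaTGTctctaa
The Ighm and Igha ends differ at 19 of 60 positions and both carry the penultimate cysteine of the tailpiece, the extension through which these isotypes bind the joining chain. Neither gamma end shown carries it, and Ighg2b differs from Igha at 46 positions. In the light chains the capital codon encodes the cysteine that bonds to the heavy chain. Iglc2 and Iglc3 are identical over these 60 bases and 94.1% identical over their whole transcripts, so counts could be split between them and are read together with Iglc1 as lambda. Ighg2b and Ighg2c are 86.3% identical over the transcripts, and 82.8% over their last 300 bases.

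Cells were clustered without any immunoglobulin gene or Jchain, so that the members could be compared between clusters they had not shaped. Names rest on listed marker genes and carry the suffix "-like". B-like cells (2 clusters, led by Bank1, Fcmr and Fcer2a) numbered 2724 in the library labelled Otud1-/- and 1952 in WT. Each of those clusters had 10 of the 14 B cell markers among its 50 leading genes. Plasma-like cells (1 cluster, led by Fkbp11, Derl3 and Mzb1) numbered 76 in the library labelled Otud1-/- (1.17% of kept cells, 95% interval 0.924 to 1.46) and 274 in WT (2.40%, 2.13 to 2.70), with 10 of the 14 plasma cell markers. Cluster 13, whose leading genes include Rgs13, Mef2b and S1pr2, which are genes of germinal centre B cells, stayed unnamed because only 2 B cell markers were among its leading genes. It held 183 and 419 WT cells.

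Members fell into 2 patterns over the cell classes, and both were alike in the libraries. Ighd was highest in B-like cells, at 634 CPM in the library labelled Otud1-/- and 604 CPM in WT. In plasma-like cells it was at 54.3 and 53.7 CPM, below its level in T-like cells in both libraries (83.6 and 111 CPM). All other members were highest in plasma-like cells. Igkc reached 322017 CPM there in the library labelled Otud1-/- and 224365 CPM in WT, against 5107 and 4878 CPM in B-like cells. Jchain reached 31746 and 22160 CPM in plasma-like cells, which is 710 and 259 times its B-like level. Ighm, used by both cell types, was only 3.70 and 2.39 times higher in plasma-like than in B-like cells. Of the plasma-like total, all immunoglobulin genes and Jchain together took 52.6% in the library labelled Otud1-/- and 35.9% in WT.

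**Figure D1:**
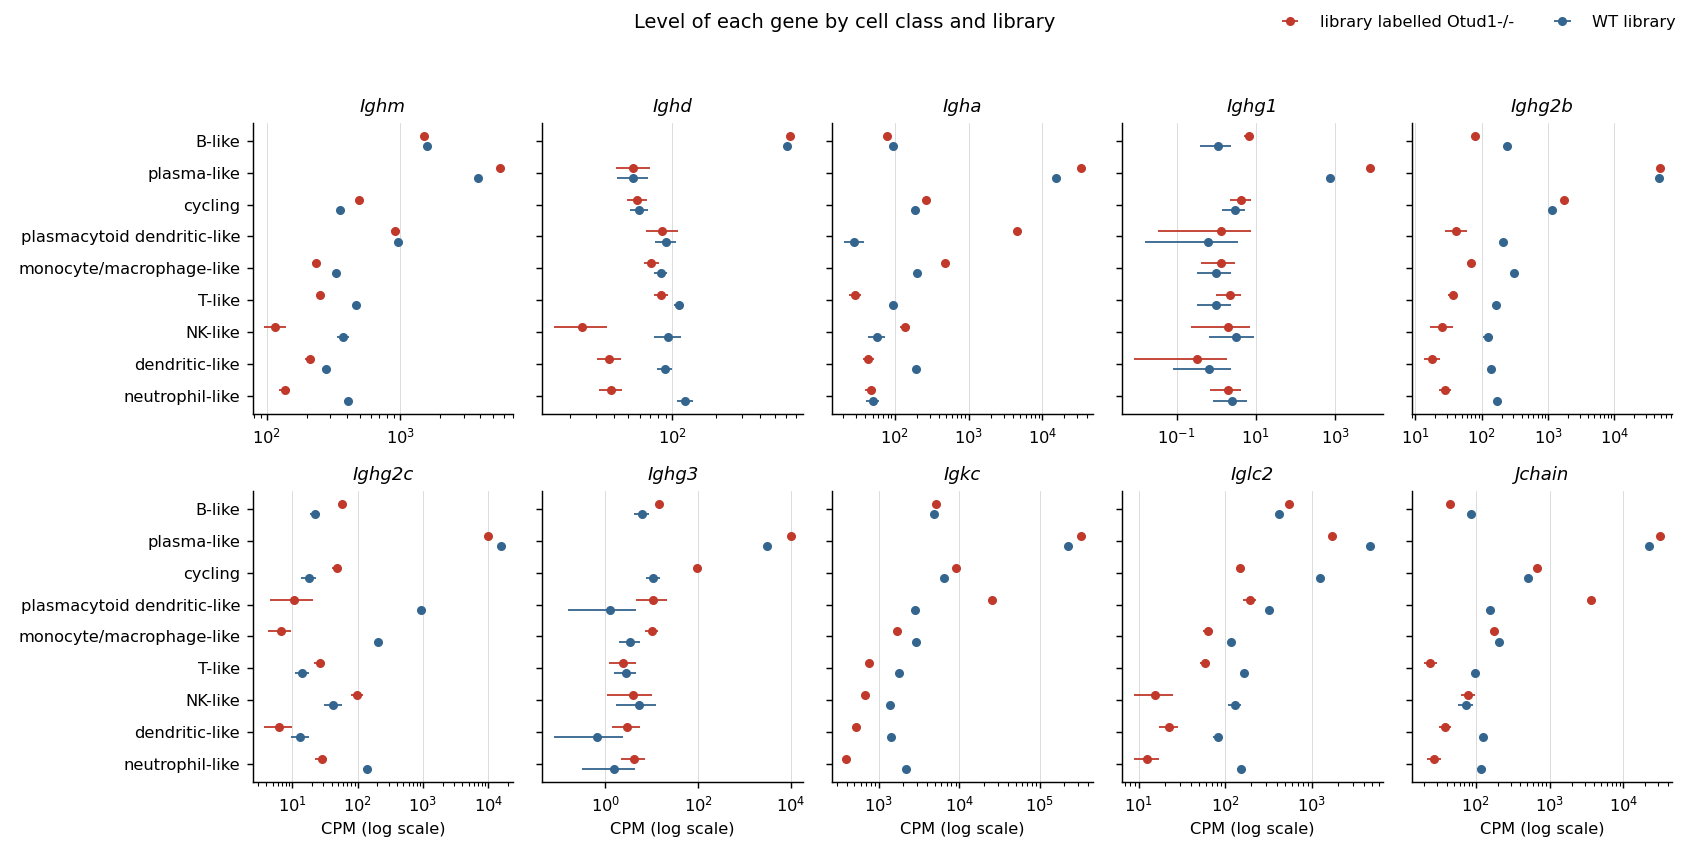
Level of each of the 10 genes in CPM (log axes) in the 9 cell classes with at least 50 cells in both libraries, for the library labelled Otud1-/- (red, upper point) and WT (blue, lower point). Bars are exact Poisson 95% intervals; Ighd peaks in B-like cells at 634 and 604 CPM, and the other genes peak in plasma-like cells.

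The B-like cells were unswitched in both libraries. Of their heavy chain UMIs, Ighm made up 63.5% in the library labelled Otud1-/- and 62.3% in WT, and Ighd 26.7% and 23.6%. Counts are of 3′ ends, so these shares are per transcript and not per length. The ratio of Ighd to Ighm UMIs was 0.420 in the library labelled Otud1-/- and 0.379 in WT. At the level of CPM, Ighd was 1.05 times as high in the library labelled Otud1-/- (log2 ratio 0.07, 95% interval 0.01 to 0.13) and Ighm 0.947 times as high (log2 ratio -0.08, -0.12 to -0.04). Igkc stood at a ratio of 1.05, and Iglc2 at 1.30. None of these 4 genes reached 1.5-fold.

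In B-like cells, 2552 genes reached a mean of 50 CPM with 100 UMIs in the higher library. Of these, 0.509% were past 1.5-fold upward in the library labelled Otud1-/- and 1.96% were past it downward. Of the 10 members, 7 were compared, 0 were higher and 2 were lower, with a median log2 ratio of -0.08 beside -0.04 for all genes compared. The 2 lower members were Ighg2b and Jchain. Ighg2b had 826 UMIs in the library labelled Otud1-/- (78.4 CPM) and 1325 in WT (237 CPM), a log2 ratio of -1.59. A single WT barcode held 660 of those UMIs, and without the highest cell of each library the log2 ratio was -0.68. Jchain had 44.7 CPM in the library labelled Otud1-/- and 85.7 CPM in WT, a ratio of 0.522 (0.459 to 0.594). With at most 5% mitochondrial UMIs its log2 ratio was 0.054, against -0.93 at the limit used. Both genes were also lower in T-like cells, which make no antibody (Ighg2b 36.4 and 163 CPM, Jchain 24.2 and 97.0 CPM), and the part of background RNA in the B-like difference was not tested.

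Single B-like cells were called from cells with at least 3 heavy chain UMIs. Unswitched cells, in which Ighm and Ighd together held more than 50% of them, were 96.8% of 2435 called cells in the library labelled Otud1-/- (95% interval 96.0 to 97.4) and 96.6% of 1496 in WT (95.5 to 97.5). Cells led by a switched gene were 2.87% and 2.94%. Counted over all cells, switched calls were 2.57% of B-like cells in the library labelled Otud1-/- and 2.25% in WT, against 2.52% and 4.05% of T-like cells and 2.13% and 5.20% of neutrophil-like cells, which make no antibody. The intervals of B-like and T-like cells overlapped in the library labelled Otud1-/-, and the B-like share was the lower one in WT, so these calls are not read as switching. With at least 10 heavy chain UMIs, switched calls were 41 of 2724 B-like, 5 of 793 T-like and 4 of 892 neutrophil-like cells in the library labelled Otud1-/-. In WT they were 20 of 1952, 12 of 1753 and 9 of 961. The order of the classes thus depends on the minimum, and the part of background was not tested.

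Cluster 13 stood apart from this. A switched gene led in 111 of 157 called cells in the library labelled Otud1-/- (70.7%, 95% interval 62.9 to 77.7) and in 180 of 283 in WT (63.6%, 57.7 to 69.2). Most of them were led by Ighg2b, 73 cells in the library labelled Otud1-/- and 161 in WT, followed by Igha with 22 and 20. Ighd was at 60.7 and 87.7 CPM, below its T-like level in both libraries. Ighg3 led in 11 cells of the library labelled Otud1-/- and 5 WT cells. Lambda UMIs were 9.31% of light chain UMIs in the library labelled Otud1-/- and 23.0% in WT, with Iglc2 at 258 and 1253 CPM. Of cells with at least 5 light chain UMIs, 2 of 168 in the library labelled Otud1-/- (1.19%) and 42 of 379 in WT (11.1%) had more lambda than kappa.

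The cycling cells also carried switched transcripts. Ighg2b made up 64.1% of their heavy chain UMIs in the library labelled Otud1-/- and 64.1% in WT, at 1731 and 1132 CPM. A single cell held 2409 of the 4881 Ighg2b UMIs of the library labelled Otud1-/-, whose cycling cells had 7612 heavy chain UMIs. The equal shares therefore rest on that cell. Without the highest cell of each library the levels were 893 and 1120 CPM. Cluster 16, led by Myc and Egr3, was unnamed, with 2 dendritic cell markers as the most of any class, and its called cells were mostly unswitched. There Ighm was at 1105 and 1345 CPM, and 94.5% of 110 called cells in the library labelled Otud1-/- and 94.0% of 83 in WT were led by Ighm and Ighd.

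Nearly all plasma-like cells used 1 heavy chain gene. A call needed at least 20 heavy chain UMIs and 50% of them in the leading gene, which 74 of 76 cells in the library labelled Otud1-/- and 255 of 274 in WT met. The leading gene held a median of 99.5% of a cell's heavy chain UMIs in the library labelled Otud1-/- and 99.3% in WT. The remaining cell with 20 UMIs or more in the library labelled Otud1-/- was mixed, with 41.2% in its leading gene, and it is counted among the 75 cells of the shares below. A called Ighg2b cell of that library held 50.7% of its heavy chain UMIs in Ighg2b, and in the other 73 called cells the leading gene held over 80%.

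Over all called cells the most frequent isotype was Igha in the library labelled Otud1-/- and Ighg2b in WT. Igha led in 38 of 75 cells in the library labelled Otud1-/- (50.7%, 95% interval 38.9 to 62.4) and in 71 of 255 in WT (27.8%, 22.4 to 33.8). Ighg2b led in 22 cells (29.3%, 19.4 to 41.0) and in 107 WT cells (42.0%, 35.8 to 48.3). Ighg2c, the C57BL/6 counterpart of Ighg2a, led in 5 cells (6.67%, 2.20 to 14.9) and in 62 WT cells (24.3%, 19.2 to 30.1). Ighm led in 3 and 12 cells, Ighg3 in 4 and 2, and Ighg1 in 2 and 1. No plasma-like cell was led by Ighd, 0 of 75 and 0 of 255. The difference was 22.8 points for Igha (Newcombe interval 10.3 to 35.0), -12.6 points for Ighg2b (-23.6 to -0.05) and -17.6 points for Ighg2c (-24.4 to -8.28), each the library labelled Otud1-/- minus WT.

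**Figure D2:**
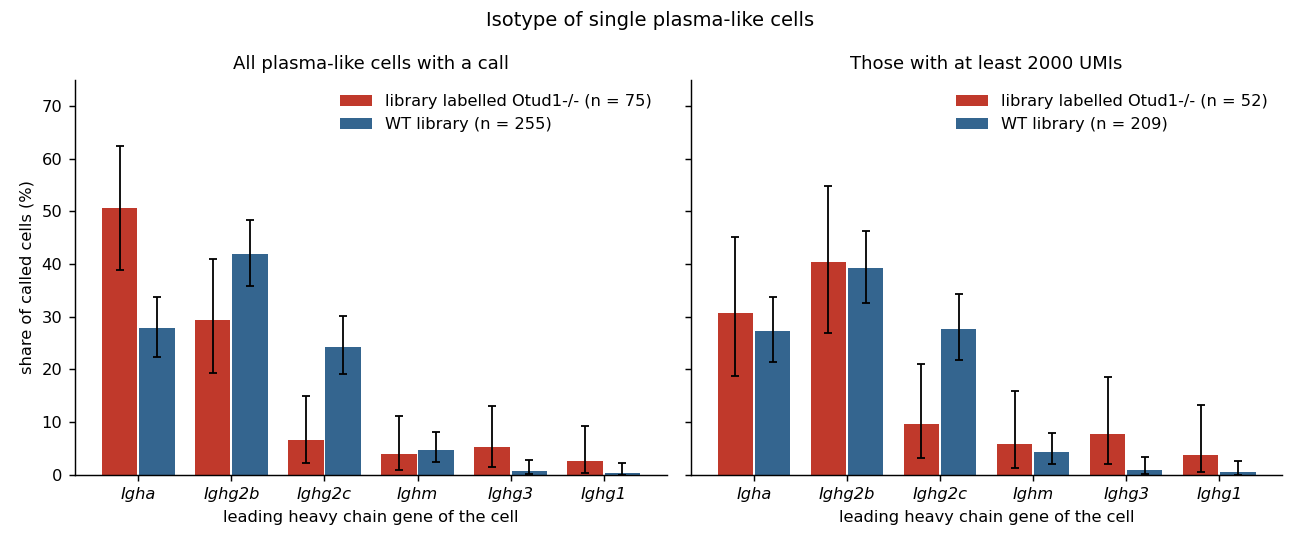
Share of plasma-like cells (y axis, %) by leading heavy chain gene, for all called cells (left, 75 and 255) and for those with at least 2000 UMIs (right, 52 and 209), in the library labelled Otud1-/- (red) and WT (blue). Bars are exact Clopper-Pearson 95% intervals; the Igha share is 50.7% against 27.8% in all called cells and 30.8% against 27.3% in the deeper cells.

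Depth separated the Igha cells of the library labelled Otud1-/- from its other plasma-like cells. Their median was 1330 UMIs, and 22 of 38 held fewer than 2000, against 1 of its 33 cells with a gamma isotype, whose median was 20803 UMIs. In WT, Igha cells had a median of 3177 UMIs and gamma cells 3450.5. The 22 shallow Igha cells of the library labelled Otud1-/- had a median of 310 genes, 2 of the 14 plasma cell markers and 0.36% mitochondrial UMIs. Gm42418, a gene that collects ribosomal RNA reads, took 6.78% of their UMIs, and neutrophil markers together 3017 CPM. The other 16 had a median of 1976 genes, 12 plasma cell markers, 0.77% of UMIs in Gm42418 and neutrophil markers at 135 CPM.

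Among cells with at least 2000 UMIs, a limit chosen after the values were seen, Igha led in 16 of 52 cells in the library labelled Otud1-/- (30.8%, 18.7 to 45.1) and in 57 of 209 in WT (27.3%, 21.4 to 33.8). The difference shrank to 3.50 points (-9.11 to 18.1). That of Ighg2b turned to 1.15 points (-12.8 to 16.1), and Ighg2b was then the most frequent isotype in both libraries (40.4% and 39.2%). That of Ighg2c stayed, with 5 of 52 cells (9.62%) in the library labelled Otud1-/- and 58 of 209 (27.8%) in WT. The variable segments of Ighg2c cells are given below. The Igha excess among all called cells thus moves with shallow cells, and their part in it was not tested.

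**Figure D3:**
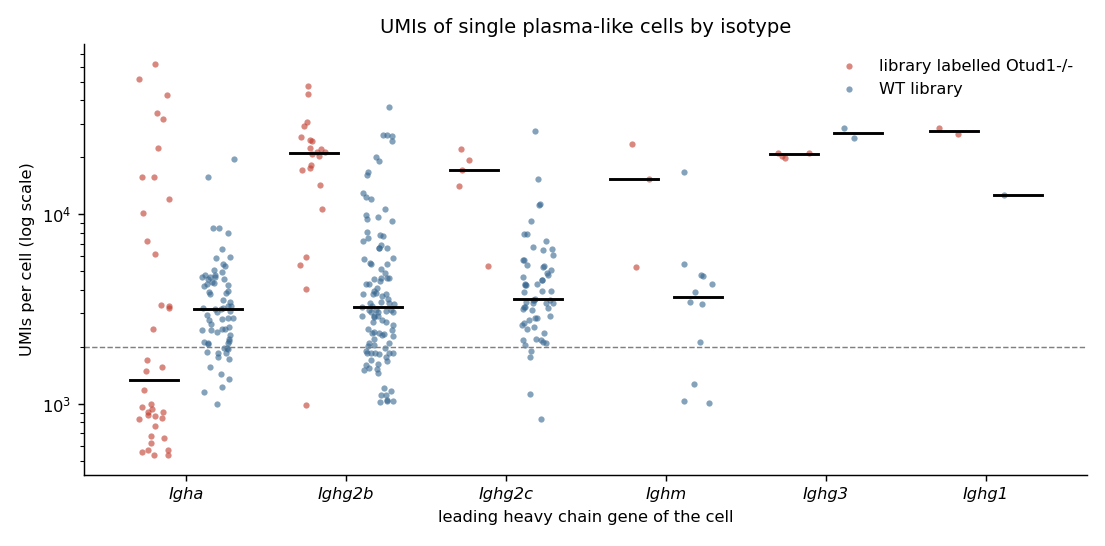
UMIs per plasma-like cell (y axis, log scale) by leading heavy chain gene, one point per cell, for the library labelled Otud1-/- (red) and WT (blue); black lines are medians and the dashed line is 2000 UMIs. Of the 38 Igha cells in the library labelled Otud1-/-, 22 lie below the line, against 14 of 71 in WT.

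The Ighg2c share also differed within the WT library by Xist, with intervals that overlapped. Of WT plasma-like cells with Xist and no Y-linked UMI, 25 of 93 called cells were led by Ighg2c (26.9%, 18.2 to 37.1). Of WT cells with a Y-linked UMI and no Xist, 3 of 31 were (9.68%, 2.04 to 25.8). In the library labelled Otud1-/- the same kind of cell gave 2 of 38 (5.26%, 0.644 to 17.7). For Igha these shares were 12 of 38 cells (31.6%) in the library labelled Otud1-/- and 7 of 31 in WT (22.6%). The differences among cells with a Y-linked UMI were 9.0 points for Igha and -4.41 points for Ighg2c, both with an interval that spans 0 (-12.3 to 28.4 and -20.1 to 9.17). Among called cells with neither or both kinds of UMI, Igha led in 26 of 37 in the library labelled Otud1-/- (70.3%) and 36 of 131 in WT (27.5%). Whether a Y-linked UMI is found can depend on the depth of a cell, and the part of depth in these shares was not tested. Genotype and the presence of cells with Xist cannot be told apart in the whole libraries.

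Summed over plasma-like cells, 9 members were compared between libraries, of which 3 passed 1.5-fold upward (Igha, Ighg1 and Ighg3) and 2 downward (Ighg2c and Iglc2) in the library labelled Otud1-/-. Among all 1095 genes compared, 2.47% were higher (27 genes) and 35.3% lower (386 genes), with a median log2 ratio of -0.46 beside 0.52 for the members. Trimmed mean (TMM) scaling adds 0.46 to every log2 ratio and gives 79 higher and 83 lower genes. Under it Ighg2c, at -0.19, no longer passed 1.5-fold, while Ighm (1.01), Igkc (0.98) and Jchain (0.97) did. Igha had 33153 CPM in the library labelled Otud1-/- and 15413 CPM in WT (log2 ratio 1.11, 1.08 to 1.13). Ighg3 had 9957 and 3126 CPM (log2 ratio 1.67), and Ighg1 7723 and 734 CPM (3.39). Iglc2 was lower, at 1742 and 4727 CPM (log2 ratio -1.44), and so was Ighg2c, at 9863 and 15484 CPM (-0.65). Ighg2b, Ighm, Igkc and Jchain had log2 ratios between 0.056 and 0.55 in CPM, below 1.5-fold.

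These sums rest on few cells for the rarer isotypes. All but 1 of the 957 WT Ighg1 UMIs came from 1 cell with 956, and the 8252 of the library labelled Otud1-/- came almost wholly from 2 cells with 4887 and 3369 heavy chain UMIs. Ighg3 in WT was likewise carried by 2 cells. In the cells with a Y-linked UMI and no Xist the log2 ratio was 0.84 for Ighg2c and -0.74 for Ighm, both opposite in direction to the whole class, and that of Igha was 0.23.

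Jchain was found in every called plasma-like cell, 75 of 75 in the library labelled Otud1-/- and 255 of 255 in WT, whatever the isotype. Its level per cell differed between isotypes. In the library labelled Otud1-/- the median was 40.6 per 1000 UMIs in Igha cells (quartiles 25 and 56.3) and 39.4 in the 3 Ighm cells, against 16.3 in Ighg2b cells (14 and 23.2). Its 5 Ighg2c cells had a median of 29.0 and its 4 Ighg3 cells 29.2. In WT the 12 Ighm cells had 36.7 (29.9 and 44.6), while Igha cells had 18.4 (10.7 and 33.8), Ighg2b cells 16.9 (9.76 and 25.7) and Ighg2c cells 16.8 (10.1 and 35.4). The 2 WT Ighg3 cells had 21.1 and the 1 WT Ighg1 cell 18.4, both at or above the WT Igha median. WT Igha cells therefore overlapped the gamma cells, and those of the library labelled Otud1-/- had a lower quartile above the upper quartile of its Ighg2b cells. The 22 shallow Igha cells had a median of 28.9 and the 16 deeper ones 55.1, both above the WT median for Igha cells. The WT Igha cells include 13 from a group of 27 lambda cells, described below, whose median was 6.91. The library labelled Otud1-/- had 0 cells of that group, and its part in the WT Igha median was not tested.

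**Figure D4:**
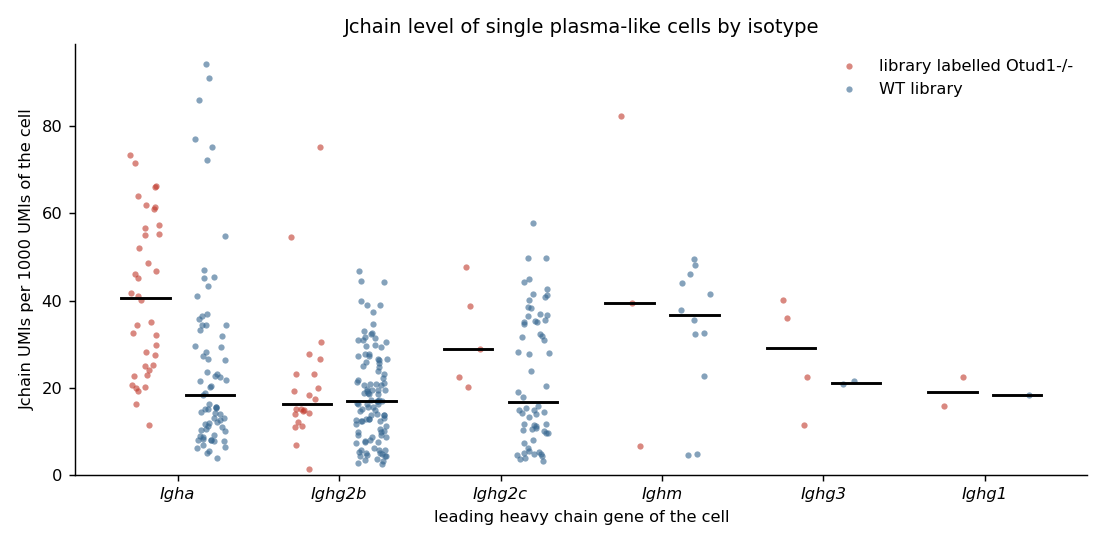
Jchain UMIs per 1000 UMIs of the cell (y axis) in plasma-like cells by leading heavy chain gene, one point per cell, for the library labelled Otud1-/- (red) and WT (blue); black lines are medians. The median is 40.6 in Igha cells of the library labelled Otud1-/- and 18.4 in WT Igha cells, and 16.3 and 16.9 in Ighg2b cells.

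Light chain use was mostly kappa in both cell types. In B-like cells lambda made up 15.5% of light chain UMIs in the library labelled Otud1-/- (15.2 to 15.8) and 13.2% in WT (12.8 to 13.5). Within lambda, Iglc2 took 58.8% and 57.4%, Iglc3 23.3% and 24.4%, and Iglc1 17.9% and 18.2%. Of B-like cells with at least 5 light chain UMIs, 5.77% of 2496 in the library labelled Otud1-/- and 4.0% of 1574 in WT had more lambda than kappa. In T-like cells those shares were 3.05% of 131 and 6.46% of 588, so background can reach this level.

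In plasma-like cells more lambda than kappa was found in 3 of 76 cells of the library labelled Otud1-/- (3.95%, 0.822 to 11.1) and in 36 of 274 in WT (13.1%, 9.37 to 17.7). The 3 cells of the library labelled Otud1-/- used Iglc1, with a median of 15102 Iglc1 UMIs, and held the gamma isotypes Ighg1 (2 cells) and Ighg2b (1 cell). They carried 94.2% of the lambda UMIs of the class. By UMIs the order was the opposite of that by cells, with lambda at 13.8% of light chain UMIs in the library labelled Otud1-/- and 9.13% in WT. Among cells with at least 2000 UMIs the shares of lambda cells were 5.66% and 7.66%, a difference of -2.0 points (-7.77 to 8.14). In WT, 9 cells used Iglc1, 8 of them led by Igha. Among called Igha cells, lambda led in 0 of 38 in the library labelled Otud1-/-, which allows a share of up to 7.89% by the limit of 3 counts and 9.25% by the exact interval, and in 21 of 71 in WT (29.6%, 19.3 to 41.6). Of these 21 WT cells, 13 had Iglc2 or Iglc3 leading. Among Igha cells with at least 2000 UMIs, lambda led in 0 of 16 (0 to 20.6%) and in 15 of 57 in WT (26.3%, 15.5 to 39.7), with intervals that overlapped.

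The remaining 27 WT lambda cells formed a group of their own. All 27 had Igha as the leading heavy chain gene, at 4 to 44 heavy chain UMIs, and 13 of them passed the minimum for a call. They held Iglc2 and Iglc3 in near equal amounts (medians of 56 and 68 UMIs per cell), 1.14 Iglc3 UMIs per Iglc2 UMI, against 6 or fewer Igkc UMIs. In each of them Iglc2 was between 38.5% and 56.9% of lambda. All 17 heavy chain variable segment UMIs in these cells came from Ighv14-3, found in 12 of the 27, against 1 of 238 kappa cells of the same library. Of the 27, 15 had Xist and no Y-linked UMI, and 1 the reverse. Mzb1, a chaperone of antibody assembly, was at 6088 CPM in them and at 3715 CPM in WT kappa cells. Sdc1, the plasma cell surface marker CD138, was at 40.2 against 113 CPM, and a median of 5 against 7 of the 14 plasma cell markers was detected. Jchain was lower, at a median of 6.91 against 18.8 per 1000 UMIs. These cells were singled out after their values were seen.

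WT plasma-like cells also included 13 with at least 100 lambda UMIs that made up 25% to 50% of their light chain UMIs, and 0 such cells were found in the library labelled Otud1-/-. In 9 of them, all led by Ighg2b, 96.4% to 100% of lambda was Iglc2, with 166 to 347 lambda and 250 to 715 kappa UMIs per cell. All 23 of their heavy chain variable segment UMIs came from Ighv6-3 (8 of the 9 cells, and 9 of the 265 other WT plasma-like cells). In the other 4, also led by Ighg2b, 98.6% to 99.3% of lambda was Iglc3. All 37 variable segment UMIs in those came from Ighv1-75, which 4 of the 4 cells held and 0 of the 270 others. Of the 9 cells, 5 had a Y-linked UMI without Xist and 0 the reverse, and of the 4 cells, 3 had Xist without a Y-linked UMI. Cells with almost pure Iglc2 and almost pure Iglc3 thus both occur in these counts. Their median depth was 5782 UMIs in the 9 cells and 9568.5 in the 4, against 3462.5 in all WT kappa cells. The part of doublets was not tested.

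**Figure D5:**
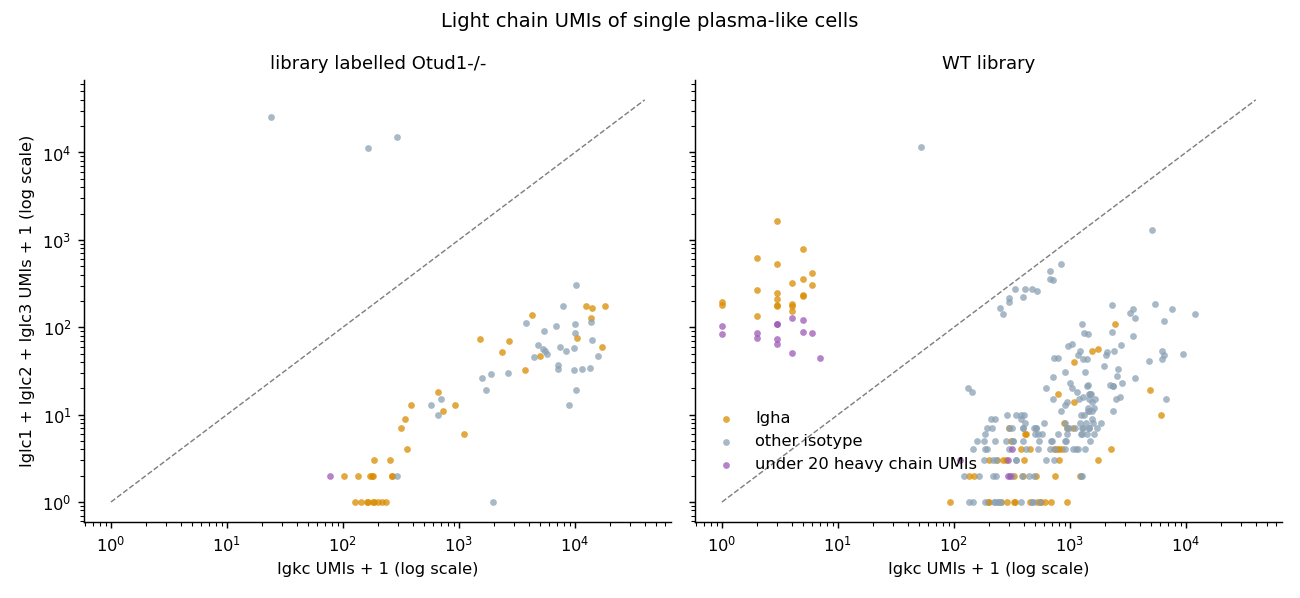
Lambda UMIs (Iglc1, Iglc2 and Iglc3 summed, y axis) against Igkc UMIs (x axis) in single plasma-like cells, 1 added to each count and both axes logarithmic, for the library labelled Otud1-/- (left) and WT (right); colour gives the isotype and the dashed line marks equal counts. Above the line lie 3 cells in the library labelled Otud1-/- and 36 in WT, and the lambda cells in WT are mostly Igha cells or cells with under 20 heavy chain UMIs.

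Over all plasma-like cells with at least 5 heavy chain variable segment UMIs, 38 in the library labelled Otud1-/- and 68 in WT, 22 different segments led in each. Variable segments lie far from the 3′ end, and a call was reached in 38 of 76 cells in the library labelled Otud1-/- and 68 of 274 in WT. Median depth of the class was 13076.5 and 3227 UMIs, and its part in the number of calls was not tested. Ighv1-26 and Ighv1-82 led most often in the library labelled Otud1-/- (5 cells each, 13.2% for Ighv1-26), and Ighv1-81 in WT (12 cells, 17.6%). Among WT Ighg2c cells, 11 had such a call and only 4 segments led, with Ighv10-1 in 5 of them (45.5%, 16.7 to 76.6). In the library labelled Otud1-/-, 5 segments led in 5 Ighg2c cells. The part of single clones in the Ighg2c shares was not tested. Ighv1-81 was paired with Igkv6-25 in 6 WT Ighg2b cells. Transcripts of Iglv1 were present in 159 of 238 WT kappa cells, so pairs with Iglv1 are not given. The source of these transcripts was not tested.

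Members were also found in cells that make no antibody, and Igkc was higher in WT in the T-like, neutrophil-like, monocyte/macrophage-like, dendritic-like and NK-like classes. In T-like cells Igkc was at 766 CPM in the library labelled Otud1-/- and 1790 CPM in WT (log2 ratio -1.22, -1.28 to -1.17). In neutrophil-like cells it was at 394 and 2156 CPM, in dendritic-like cells at 516 and 1434 CPM, and in NK-like cells at 668 and 1374 CPM. Igha went the other way in monocyte/macrophage-like cells (478 and 200 CPM) and NK-like cells (138 and 57.3 CPM). The neutrophil-like class was a different mix in each library, with 784 and 162 WT cells in cluster 6 and 108 and 701 in cluster 8. Members took 0.0607% and 0.0926% of UMIs in cluster 6, and 0.280% and 0.487% in cluster 8. Over the class these shares were 0.0718% and 0.332%, and the part of the mix in them was not tested. Over all cells neither B-like nor plasma-like, Igkc (log2 ratio 0.22) and Igha (0.88) were higher in the library labelled Otud1-/-, but this pool includes cluster 13 and the cycling cells. Over the named classes other than B-like, plasma-like and cycling, Igkc was lower in the library labelled Otud1-/- (1956 and 2304 CPM) and Igha higher (354 and 186 CPM). Without the highest cell of each library these were 868 and 2126 CPM for Igkc and 149 and 168 CPM for Igha. Without cells in which members made up 5% of UMIs or more, Igha was at 20.3 and 39.5 CPM in monocyte/macrophage-like cells and at 61.2 and 57.3 CPM in NK-like cells. Its log2 ratio over all cells neither B-like nor plasma-like was then -0.20. The order of the low classes differed between the libraries, and for Ighg1 the intervals of 7 of 8 neighbouring classes in the library labelled Otud1-/- and 9 of 10 in WT overlapped. Igkc was detected in 57.8% of T-like cells in the library labelled Otud1-/- and 79.3% in WT. With every cell thinned to 1000 UMIs these were 28.0% and 61.3%, against 92.1% and 93.8% of B-like cells.

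The background kept the members' proportions only in part. In T-like cells Ighm was 58.4% of heavy chain UMIs in the library labelled Otud1-/- and 54.8% in WT, Ighg2b 8.40% and 19.0%, and Igha 6.77% and 11.1%. The ratio of Ighd to Ighm was 0.330 and 0.237 there, between the B-like and plasma-like values.

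A few barcodes set the highest background values of Igkc. In plasmacytoid dendritic-like cells, Igkc was at 25349 CPM in the library labelled Otud1-/- and 2824 CPM in WT. A single barcode held 24186 of the 25996 member UMIs of that class in the library labelled Otud1-/-. Without cells in which members made up 5% of UMIs or more, the levels were 1187 and 1320 CPM. In WT mast cell/basophil-like cells, 4 such barcodes took Igkc to 11535 CPM, against 1008.5 CPM without them. Monocyte/macrophage-like cells held 16 of these barcodes in the library labelled Otud1-/- and 15 in WT. Ighm outside B-like and plasma-like cells was highest in plasmacytoid dendritic-like cells, at 923 CPM in the library labelled Otud1-/- and 972 CPM in WT. The ratio of Ighd to Ighm there was 0.0929 in both libraries. Iglc3 was detected in 81.1% and 50.7% of these cells. The source of these transcripts was not tested. Doublet removal had taken 3 barcodes with over 10% member UMIs from the library labelled Otud1-/- and 51 from WT, of which 28 were led by Ighg2b and 23 by Igha.

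Genes around the members were described from 5 lists, counting those that averaged 20 CPM or more and had 50 UMIs in the higher library. In B-like cells none of the 20 B cell receptor and identity genes reached 1.5-fold in either direction, with a median log2 ratio of -0.13 beside -0.04 for all genes. The widest were Cr2, a complement receptor (log2 ratio -0.49), Lyn, a receptor-proximal kinase (-0.45), and Cd79b, a signalling chain of the B cell receptor (0.44). Of the antibody secretion list, 12 of 20 were measured in B-like cells and 0 reached 1.5-fold, with Mzb1 (log2 ratio 0.33), Txndc5, a disulfide isomerase (0.29), and Slamf7, a surface receptor (-0.24), widest. The measured genes of the other lists, among them Msh6, a mismatch repair gene (-0.19), and Itgb7, an integrin chain of gut homing (-0.30), also stayed below 1.5-fold.

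In plasma-like cells all 20 secretion genes were measured, 5 lower and 0 higher in the library labelled Otud1-/-, with a median log2 ratio of -0.24 beside -0.46 for all genes. The share of all genes that were lower, 35.3%, was above that of the list. The lower ones were Hspa5, the chaperone BiP of the endoplasmic reticulum (674 and 1240 CPM, log2 ratio -0.88), Irf4, a transcription factor of the plasma cell fate (36.5 and 64.4 CPM, -0.81), Eaf2 (181 and 299 CPM, -0.73), Fkbp11 (-0.67) and Hsp90b1, an endoplasmic reticulum chaperone (-0.65). The TMM shift of 0.46 leaves 0 of these 5 past 1.5-fold. It also takes other genes of the list past 1.5-fold upward. These were Tnfrsf17 (log2 ratio 0.33 before the shift), Txndc5 (0.31), Xbp1 (0.16) and Prdm1 (0.14). The direction of the list therefore depends on the scaling. Of 9 measured B cell identity genes, Fcrla was higher (152 and 97.4 CPM, log2 ratio 0.64) and Pou2af1, a coactivator of antibody gene promoters, was lower (82.4 and 153 CPM, -0.89), while Cd79a, a signalling chain of the B cell receptor, was at 0.41. Mki67, expressed in dividing cells, was the sole measured gene of the class switching and germinal centre list, at 43.1 and 152 CPM (log2 ratio -1.81). Neither Ccr10, a homing receptor of IgA plasma cells (65.5 and 50.6 CPM, log2 ratio 0.37), nor Cxcr4 (77.7 and 92.8 CPM) reached 1.5-fold. With the TMM shift of 0.46, Pou2af1 was no longer past 1.5-fold, and Cd79a and Ccr10 passed it upward. Among other immunoglobulin genes, Iglc1 was higher (49445 and 13252 CPM) and Iglc3 lower (484 and 4560 CPM). Ighe was at 2 UMIs in the library labelled Otud1-/- and 219 in WT, all 219 in 1 cell.

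The genes whose level followed the members most closely were ranked over 55 cluster and library combinations of at least 20 cells, which share their libraries. Ighd was followed by Scd1 (Pearson r = 0.91), Dmxl1 (0.85), Fcmr, the receptor for IgM (0.85), Fcer2a (0.85) and Bank1 (0.84). Ighm was followed by Fcrla (0.83), Mzb1 (0.82), Mef2c (0.79), Cd79a (0.79) and Ly6d (0.77). For Jchain these were Mzb1 (0.71), Eaf2 (0.68), Pafah1b3 (0.63), Myl4 (0.59) and Txndc11 (0.59). Igha followed Mzb1 at 0.57, Ssr4 at 0.57, Eaf2 at 0.55, Derl1 at 0.52 and Pafah1b3 at 0.52, and Ighg1 followed Sec11c at 0.60, Ssr4 at 0.59, Mzb1 at 0.57, Erlec1 at 0.54 and Prdx4 at 0.54.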

How the data were processed

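The deposited values were whole-number UMI counts per gene and cell barcode, with no normalisation, from 10x Genomics 3′ v3.1 libraries per the labels. The count matrices carry Cell Ranger 6.0.1 per the file headers, while the submitters' processing notes name Cell Ranger 5.0.0, Seurat 3.2.3 and mm10. Barcodes needed 200 detected genes, and no more than 15% of their UMIs could be mitochondrial. Doublet scores were computed in each library against 2 simulated doublets per cell, and the highest scores at 0.8% per 1000 barcodes were removed, 450 barcodes in the library labelled Otud1-/- and 1355 in WT. Both libraries were clustered together, with immunoglobulin genes and Jchain left out of the variable genes and of the totals (2000 variable genes, 30 components, 20 neighbours, Leiden resolution 1, leidenalg 0.10.2, scikit-learn 1.9.0). The class holding the largest number of markers in a cluster's top 50 genes (minimum 3) gave its name, unless another class led its top 10. Differences from the study's own cell types may come from these rebuilt names. For each class, the UMIs of a library's cells were added up, expressed as CPM and compared as a log2 ratio (Otud1-/- label over WT) after adding 0.5 CPM. Shares carry exact Clopper-Pearson intervals, differences of shares Newcombe intervals, CPM exact Poisson intervals and ratios exact conditional intervals, all at 95% (scipy 1.17.1). Library depth was 44083735 and 44878537 UMIs, and the ratio step was tested on simulated counts. In these class sums a deep cell weighs more than a shallow one, so few cells can set a ratio. The members and gene lists were chosen with earlier results of these data known. Named genes were all members and the 5 genes most like Ighd, Ighm, Igha, Ighg1 and Jchain. The 3 widest measured members of each list in each class, with at least 20 CPM and 50 UMIs, were also named. Fkbp11, Hsp90b1, Tnfrsf17, Xbp1, Prdm1, Gm42418 and the variable segments were added after values were seen. Alternatives were other filters, cluster resolutions, scalings, minimum counts and depth limits. Genome sequence was not used here, and chain ends were read from GENCODE M21 transcripts. One of the leading genes of a cluster is not reported here.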

Additional observations from a re-analysis of the deposited data

Results flagged for a closer look

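Jchain, Igha, Ighg2b and Iglc2 had ratios in opposite directions in B-like and plasma-like cells, with counting intervals away from equality in both; the difference was not tested, since each class gives 1 value per library. The log2 ratio of Igha was -0.26 in B-like and 1.11 in plasma-like cells. That of Jchain was -0.93 in B-like and 0.52 in plasma-like cells. Ighg2b was at -1.59 in B-like cells, where a single WT barcode held 660 of 1325 UMIs, and at 0.056 in plasma-like cells. Iglc2 was at 0.38 in B-like and -1.44 in plasma-like cells, where the 27 WT lambda cells with Igha held 1817 of the 6162 WT UMIs. In B-like cells, Igha and Jchain were at 77.7 and 44.7 CPM in the library labelled Otud1-/- and at 93.2 and 85.7 CPM in WT, within the range of classes that make no antibody. With at most 5% mitochondrial UMIs, the B-like log2 ratios of Igha, Iglc2 and Jchain changed sign, to 1.27, -0.21 and 0.054, and in cells with a Y-linked UMI and no Xist that of Igha was 0.28.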

How the results depend on the processing

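No paired analysis was possible because each genotype has 1 library. Over the results that answer a comparison, 82 values under another setting stayed close to the reported one, 44 moved and 2 reversed, and 4 more reversed among values of single genes; the cause was not tested unless a setting's construction shows it. With at most 5% mitochondrial UMIs, the B-like log2 ratios were 0.28 for Ighd, -1.79 for Ighg2b, -2.19 for Ighg2c (reversed from 1.32) and 0.054 for Jchain (reversed), with 8 genes higher; Igha was at 1.14 in plasma-like cells, Igkc at -1.36 in T-like cells, the Igha share differed by 6.34 points and the switched B-like share by -6.69. Without doublet removal, plasma-like Igha was at 0.88, Ighg2c at -0.53, T-like Igkc at -0.76, and Igha in cells neither B-like nor plasma-like at -0.46 (reversed from 0.88). At Leiden resolution 2, B-like Ighg2b was at -0.87 and T-like Igkc at -1.11. In cells with a Y-linked UMI and no Xist, B-like Ighd was at 0.0038 and Ighg2b at -0.14, with 36 genes higher; plasma-like Igha was at 0.23 and Ighg2c at 0.84 (reversed), with 147 genes lower; T-like Igkc was at -0.97, and shares differed by 9.0 points for Igha, -4.41 for Ighg2c and 1.82 for switched B-like cells. In plasma-like cells, TMM scaling gave 1.56 for Igha and -0.19 for Ighg2c, median-of-ratios scaling 1.56 and -0.20, each with 79 genes higher and 83 lower, and CPM without immunoglobulin UMIs 1.54 and -0.22, with 77 higher and 89 lower. Without the highest cell per member and library, B-like Ighg2b was at -0.68, plasma-like Igha at 1.18 and Ighg2c at -0.92. With no minimum level, 722 genes were higher and 1896 lower in B-like cells, and 1958 higher and 4996 lower in plasma-like cells. The next settings were chosen after seeing the data. With at least 2000 UMIs per plasma-like cell, shares differed by 3.50 points for Igha and 1.15 for Ighg2b (reversed), and log2 ratios were 1.04 for Igha and -0.69 for Ighg2c. Without cells of other classes with 5% or more member UMIs, Igha in cells neither B-like nor plasma-like was at -0.20 (reversed) and T-like Igkc at -0.95. Isotypes with under 5 cells per library are limited by the number of cells.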
